A study of Coturnix japonica with 16 samples.

Results

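Liver RNA of 5 Japanese quail given ethinylestradiol at 5 mg/kg body weight was compared with that of 6 quail given the corn oil solvent. These 11 libraries are part of a set of 16, and the other 5 came from birds dosed at 0.5 mg/kg, which entered the statistical fit but are described here only beside the 5 mg/kg values. All birds were 12 weeks old, had no food for 16 hours, then received 1 gavage of 4 mL/kg into the crop, under a day of 8 light and 16 dark hours. The left lobe of the liver was sequenced as bulk tissue, 1 library per bird. Neither the sex of the birds nor the interval from dosing to sampling is stated in the labels. In edgeR's quasi-likelihood test with Benjamini-Hochberg adjustment, 6 of 13748 genes rose at 5 mg/kg and 0 fell, although 662 were lower at an unadjusted p under 0.05, so most of what follows describes genes by the levels in single birds.

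Ethinylestradiol (EE2) is a synthetic estrogen used in contraceptive pills. Estrogens bind nuclear receptors that switch genes on or off at their promoters and enhancers. In the liver of egg-laying birds they turn on the yolk precursors, which leave the hepatocyte as secreted lipoproteins, so that lipid synthesis and protein secretion are called on together. The vitellogenins, the main yolk precursor proteins, were not analysed here by name.

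Library totals were 15825783 to 46192737 estimated counts in the 5 mg/kg birds and 24020983 to 38156102 in the solvent birds. Hepatocyte markers took most of the marker signal in every bird, with summed levels of 172219 to 201109 CPM (counts scaled to the library size) at 5 mg/kg and 135705 to 199487 CPM in solvent birds over 17 genes. One bird of each group stood apart from its group. Solvent replicate 1 exceeded every other bird of both groups more than 10-fold in 19 genes, and 5 mg/kg replicate 1 did so in 6 genes, against 0 or 1 gene in each of the other 9 birds. Several results that rest on these birds are given with and without them, and others only with the levels of the single birds. Libraries numbered 1 to 3 and 4 to 6 are also described apart, because earlier results of these data separated them by genes of the Z chromosome.

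BBS2, a subunit of the BBSome that moves membrane proteins in and out of cilia, rose most among the 6 genes. It reached 31.2, 114, 22.8, 35.95 and 35.8 CPM in the 5 mg/kg birds, in the order of their replicate numbers, against 2.91 to 8.47 CPM (median 5.92) in the solvent birds. Replicate 2 was far above the other dosed birds, but the lowest dosed bird was still above the highest solvent bird. The log2 fold change was 3.05 (SE 0.44), with an adjusted p of 0.0215 in edgeR's quasi-likelihood test with Benjamini-Hochberg adjustment, and it was 2.44 without 5 mg/kg replicate 2.

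LOC107305801, a protein-coding gene of chromosome Z with no symbol, was the most even of the 6 among the dosed birds. It stood at 39.3, 43.1, 29.5, 45.5 and 45.6 CPM in the 5 mg/kg birds and 5.64 to 18.4 CPM (median 9.45) in the solvent birds, where replicate 1 was the highest. Its log2 fold change of 2.002 (SE 0.29, edgeR quasi-likelihood adjusted p 0.0215) was 1.83 within replicates 1 to 3 and 2.21 within replicates 4 to 6.

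SARM1, an enzyme that breaks down NAD, stood at 5.27, 16.6, 4.69, 6.85 and 26.4 CPM at 5 mg/kg and 1.25 to 2.59 CPM (median 1.90) in solvent birds. Replicates 2 and 5 were the high dosed birds. CHKA, the choline kinase that begins phosphatidylcholine synthesis, stood at 228, 315, 71.02, 95.2 and 62.9 CPM at 5 mg/kg and 22.4 to 42.1 CPM (median 36.4) in solvent birds, with replicates 1 and 2 far above the other dosed birds. SBNO2, a transcriptional coregulator that is induced by interleukin signalling in mammals, stood at 43.4, 150.1, 59.2, 70.9 and 82.6 CPM at 5 mg/kg and 17.9 to 28.7 CPM (median 23.6) in solvent birds. SLC41A1, a magnesium transporter of the cell membrane, stood at 159, 308, 72.3, 115 and 107 CPM at 5 mg/kg and 35.8 to 57.4 CPM (median 51.02) in solvent birds. In SBNO2 and SLC41A1, as in BBS2 and CHKA, replicate 2 was the highest of the dosed birds. The log2 fold changes of SARM1, CHKA, SBNO2 and SLC41A1 were 2.63 (SE 0.43), 2.21 (SE 0.37), 1.82 (SE 0.31) and 1.64 (SE 0.28), each with an edgeR quasi-likelihood adjusted p of 0.0472.

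**Figure D1:**
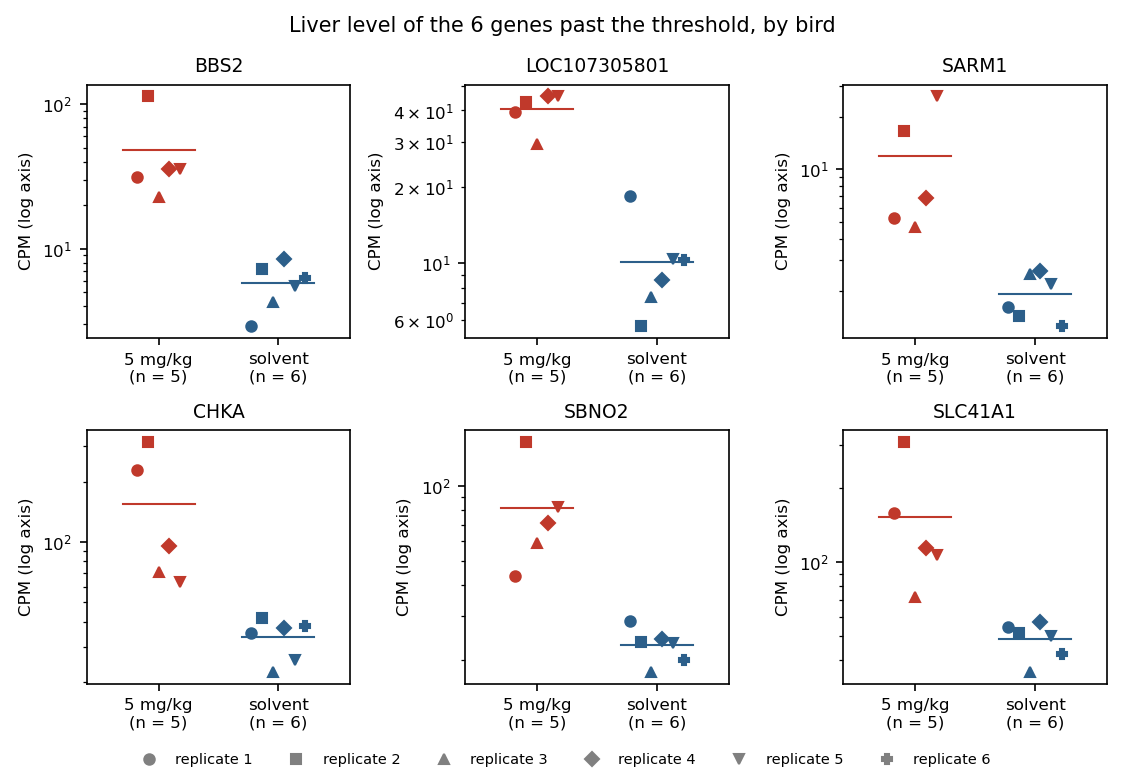
Level of the 6 genes past the threshold in each bird, in CPM on a log axis, with a line at the group mean. All 5 birds given 5 mg/kg (left of each panel) lie above all 6 solvent birds (right), and replicate 2 is the highest dosed bird in BBS2, CHKA, SBNO2 and SLC41A1.

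The 6 genes are 0.0436% of those tested, and the 0 lower genes are 0%. At an unadjusted p under 0.05, 680 genes were higher (4.95%) and 662 lower (4.82%), 1342 in all (9.76%). DESeq2 called 93 higher and 60 lower on the same genes, and limma-voom 2 and 0. Leaving out 5 mg/kg replicate 4 gave 17 higher genes and leaving out replicate 2 gave 1, while leaving out a solvent bird gave 3 (replicate 1 or 2) or 0 (replicate 3, 4, 5 or 6). On the lower side 4 genes passed when 5 mg/kg replicate 4 was left out, 1 when replicate 3 or 5 was, and 2 when solvent replicate 2 was. In the 11 fits that left out 1 bird, BBS2 passed in 7, LOC107305801 in 6, and each of the other 4 genes in 3. With only these 2 groups in the fit no gene passed, although 600 were higher and 533 lower at an unadjusted p under 0.05.

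Below that threshold, 14 genes had an adjusted p under 0.1 (10 higher and 4 lower), and 123 had one under 0.2 (76 higher and 47 lower). A second description used no test. In 76 genes (0.553% of those tested) all 5 dosed birds lay above all 6 solvent birds, and in 57 genes (0.415%) all 5 lay below. Of these 133 genes, 126 had an unadjusted p under 0.05. Both come from the same values, and groups without overlap tend to have a low p, so the 126 are no separate evidence. In a further 322 genes (2.34%) 4 of the 5 dosed birds lay above every solvent bird, and in 295 genes (2.15%) 4 lay below. For 3 dosed birds the counts were 864 above (6.28%) and 943 below (6.86%). For 2 they were 1937 (14.1%) and 2010 (14.6%), and for 1 they were 3654 (26.6%) and 3709 (27.0%). How many genes would lie so without any dose effect was not computed, so all these counts, the 76 and 57 included, only describe the birds. Replicate 2 was the highest dosed bird in 25 of the 76 genes, replicate 5 in 21, replicates 1 and 3 in 11 each and replicate 4 in 8. Among the 57 lower genes the lowest dosed bird was replicate 2 in 18, replicate 1 in 16, replicates 3 and 4 in 9 each and replicate 5 in 5. With replicate 1 of both groups left out, the counts of genes whose groups did not overlap were 192 higher and 129 lower, from fewer birds.

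Among the 58 higher genes with a symbol and a mean of at least 1 CPM whose groups did not overlap, the 15 with the lowest p include the 5 named genes above. Of the others, PLPP3 and CREB3L2 act in membranes and secretion. PLPP3, a phosphatase of the cell surface that degrades lysophosphatidic acid, stood at 104, 256, 81.99, 111 and 82.2 CPM at 5 mg/kg and 45.7 to 64.03 CPM (median 55.2) in solvent birds (log2 fold change 1.21, SE 0.25). CREB3L2, a membrane-bound transcription factor that raises the secretory capacity of cells once cleaved in the Golgi, stood at 212, 428, 179, 222 and 172 CPM at 5 mg/kg and 111 to 149 CPM (median 122) in solvent birds (log2 fold change 0.97, SE 0.21). In both genes replicate 2 was the single high bird, and the other 4 dosed birds still lay above the solvent birds.

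Kinases and a growth factor made up the next group. NRG2, a neuregulin that binds ErbB receptors, had the largest ratio of these, with 27.7, 50.4, 16.8, 33.9 and 23.2 CPM at 5 mg/kg and 4.82 to 13.8 CPM (median 7.89) in solvent birds (log2 fold change 1.91, SE 0.42). MAP3K14, the kinase of the non-canonical NF-kappaB pathway, stood at 21.5, 15.6, 19.6, 19.5 and 26.6 CPM at 5 mg/kg and 13.2 to 14.6 CPM (median 13.9) in solvent birds (log2 fold change 0.57, SE 0.12). The solvent birds of MAP3K14 differed little from each other, so a ratio of 1.48 set the groups apart. CDK17, a cyclin-dependent kinase of the PCTAIRE type, stood at 32.6 to 55.1 CPM at 5 mg/kg and 19.4 to 29.8 CPM in solvent birds (log2 fold change 0.86, SE 0.18).

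A further 4 were FBXO31, PPFIBP2, MTSS1 and CCDC14. FBXO31, the substrate receptor of an SCF ubiquitin ligase, came nearest to the threshold, with 108, 121, 85.5, 71.00 and 83.6 CPM at 5 mg/kg, 34.5 to 61.9 CPM (median 51.5) in solvent birds and an edgeR adjusted p of 0.0653 (log2 fold change 0.87, SE 0.15). PPFIBP2, a liprin scaffold protein, stood at 16.1 to 31.2 CPM at 5 mg/kg and 10.3 to 15.3 CPM in solvent birds (log2 fold change 0.88, SE 0.17). MTSS1, which binds actin and bends membranes, stood at 104 to 159.9 CPM at 5 mg/kg and 44.01 to 85.7 CPM in solvent birds (log2 fold change 0.78, SE 0.17), and its lowest solvent bird was replicate 1. CCDC14, a protein of centriolar satellites, stood at 2.06 to 4.20 CPM at 5 mg/kg and 1.06 to 1.89 CPM in solvent birds (log2 fold change 0.998, SE 0.22). Each of the genes described here beyond those 5 had an adjusted p between 0.0653 and 0.103 and did not pass.

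On the lower side 42 genes with a symbol and a mean of at least 1 CPM had groups that did not overlap. STC2, stanniocalcin 2, a secreted glycoprotein that restrains insulin-like growth factor release in mammals, had the lowest p. It stood at 19.4, 12.99, 28.4, 17.8 and 15.6 CPM at 5 mg/kg and 36.95 to 129 CPM (median 53.1) in solvent birds. The dosed birds were close together and the solvent birds spread widely, with replicates 2 and 3 at 129 and 99.1 CPM. The log2 fold change was -1.87 (SE 0.34, edgeR adjusted p 0.0692), and it was -2.12 within replicates 1 to 3 and -1.59 within replicates 4 to 6.

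Regulators of transcription and signalling followed. SMAD6, the inhibitory Smad of bone morphogenetic protein signalling, stood at 14.01, 9.09, 12.6, 12.998 and 16.2 CPM at 5 mg/kg and 17.8 to 29.5 CPM (median 26.04) in solvent birds (edgeR adjusted p 0.0692, log2 fold change -0.91, SE 0.17). KLF15, a transcription factor of the fasting response in mouse liver, stood at 73.5, 55.8, 60.9, 86.7 and 84.9 CPM at 5 mg/kg and 118 to 209.5 CPM (median 133) in solvent birds (edgeR adjusted p 0.0848, log2 fold change -1.07, SE 0.21). NOCT, nocturnin, an output gene of the circadian clock, had the largest ratio among the 15, with 9.14, 4.35, 4.99, 21.9 and 13.4 CPM at 5 mg/kg and 23.6 to 80.8 CPM (median 31.9) in solvent birds (log2 fold change -2.11, SE 0.43). Solvent replicates 1 and 2 stood at 80.8 and 80.7 CPM of NOCT and the other 4 between 23.6 and 33.9 CPM, and the log2 fold change was -3.35 within replicates 1 to 3 and -0.74 within replicates 4 to 6. PPP1R10, which targets protein phosphatase 1 to the nucleus, stood at 12.5 to 19.3 CPM at 5 mg/kg and 22.7 to 51.5 CPM in solvent birds (log2 fold change -0.93, SE 0.20).

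A pair of sulfation enzymes was in this group. PAPSS2, which makes the sulfate donor PAPS, stood at 129, 158, 131, 170.4 and 214 CPM at 5 mg/kg and 215 to 358 CPM (median 258) in solvent birds (log2 fold change -0.78, SE 0.18). CHST4, a sulfotransferase of carbohydrate chains, stood at 54.5, 64.9, 62.97, 107 and 66.1 CPM at 5 mg/kg and 133 to 244 CPM (median 172) in solvent birds (log2 fold change -1.33, SE 0.29). In CHST4 replicate 4 was the high dosed bird, and the gap to the lowest solvent bird was 107 against 133 CPM. ITPKA and MTMR4 act on inositol phosphates and phosphoinositides. ITPKA, the kinase of inositol trisphosphate, stood at 30.7 to 62.7 CPM at 5 mg/kg and 71.5 to 98.5 CPM in solvent birds (log2 fold change -0.89, SE 0.19), and MTMR4, an endosomal phosphatase, at 32.1 to 40.7 CPM at 5 mg/kg and 41.97 to 57.1 CPM in solvent birds (log2 fold change -0.49, SE 0.10).

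TIMP3, an inhibitor of metalloproteinases in the extracellular matrix, stood at 72.5 to 107 CPM at 5 mg/kg and 114 to 139 CPM in solvent birds (log2 fold change -0.66, SE 0.14), and the 0.5 mg/kg birds averaged 145 ± 31.3 CPM (SD, n = 5). TAOK3, a kinase of the STE20 family, stood at 35.6 to 49.6 CPM at 5 mg/kg and 56.7 to 98.8 CPM in solvent birds (log2 fold change -0.75, SE 0.16). FAM76A, GSE1 and KLHL5 had log2 fold changes of -0.58, -0.88 and -0.48. LAPTM5, a lysosomal membrane protein of blood cells, stood at 22.1, 24.1, 32.4, 26.1 and 29.1 CPM at 5 mg/kg and 35.5 to 43.5 CPM (median 38.02) in solvent birds (log2 fold change -0.54, SE 0.11). RAC2, a small GTPase of blood cells, named after its values were seen, stood at 6.01 to 8.59 CPM at 5 mg/kg and 9.20 to 18.2 CPM in solvent birds (log2 fold change -0.64, SE 0.20). On library totals, without the TMM scaling of the gene levels, 24 lymphocyte markers summed to 39.6 to 93.3 CPM at 5 mg/kg and 41.5 to 232 CPM in solvent birds. On the same totals 16 macrophage markers summed to 679.6 to 849 CPM at 5 mg/kg and 675 to 2105 CPM in solvent birds. The part of these cells in the values of LAPTM5 and RAC2 was not tested, and in bulk tissue fewer cells of a type and less RNA per cell cannot be told apart.

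**Figure D2:**
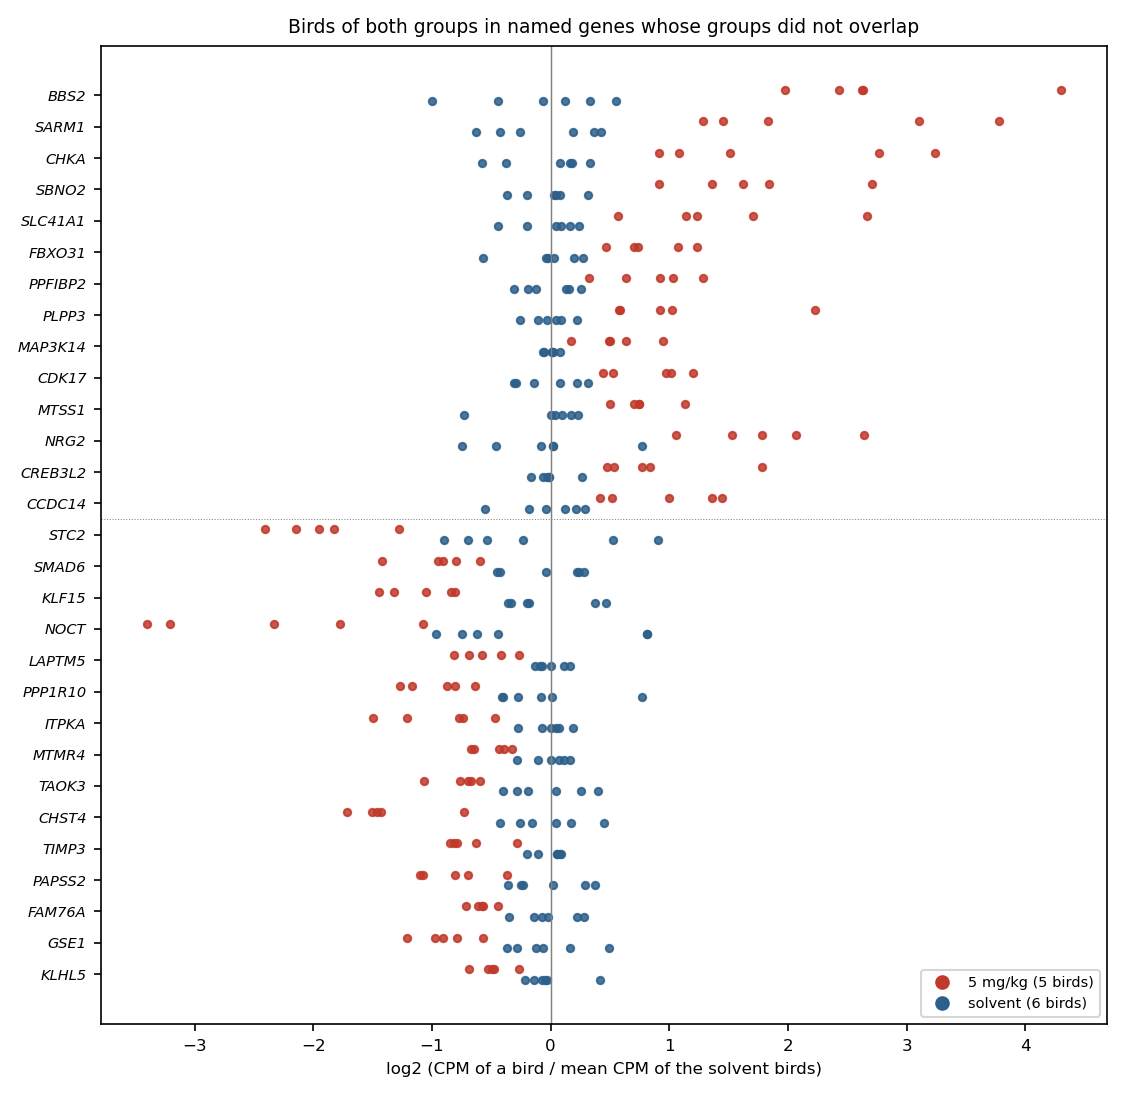
Each bird's level of named genes whose groups did not overlap, higher genes above the dotted line and lower genes below it, as the log2 of its CPM over the mean CPM of the solvent birds. Birds given 5 mg/kg are drawn just above the solvent birds of the same gene. The dosed birds of BBS2, SARM1 and CHKA spread widely to the right, those of STC2 and NOCT lie far to the left, and most other genes are separated by narrow gaps.

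The few genes described next, among those known to answer to estrogen, showed no common direction and do not stand for all estrogen targets. The receptor ESR1 stood at 47.95, 56.9, 34.2, 92.1 and 48.7 CPM at 5 mg/kg and 31.1 to 85.7 CPM (median 49.1) in solvent birds, with overlapping groups and a log2 fold change of 0.13 (SE 0.25), which was -0.13 without 5 mg/kg replicate 4. The second receptor, ESR2, stood at 23.8, 42.9, 19.9, 67.4 and 14.2 CPM at 5 mg/kg and 10.3 to 69.7 CPM (median 33.5) in solvent birds, and varied more among birds of 1 group than between groups. Its log2 fold change of -0.06 (SE 0.45) turned positive when any of 5 birds was left out, reaching 0.25 without solvent replicate 2. The progesterone receptor PGR, a classic estrogen target in the oviduct, was low in all birds, at 0.936, 0.794, 1.26, 1.23 and 2.38 CPM at 5 mg/kg and 0.932 to 1.82 CPM (median 1.47) in solvent birds (log2 fold change -0.11, SE 0.36). It was above 0, at 0.03, without 5 mg/kg replicate 2. APOB, the protein of very low density lipoprotein, stood at 4880.0, 3876, 2536, 3395 and 1962 CPM at 5 mg/kg and 2183 to 3498 CPM (median 2537) in solvent birds (log2 fold change 0.35, SE 0.21), with 3 of 5 dosed birds above the solvent mean. GREB1, an estrogen receptor cofactor in mammals, was low in all birds and lower at 5 mg/kg, at 1.26, 1.68, 1.39, 1.42 and 1.24 CPM at 5 mg/kg against 1.92 to 2.97 CPM (median 2.36) in solvent birds, with groups that did not overlap (edgeR adjusted p 0.179, log2 fold change -0.76, SE 0.19).

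The list of yolk precursors and estrogen-induced genes had 35 symbols, of which 22 were found among the genes measured. The other symbols could not be examined by name. In all, 19 members were tested, 12 above 0 and 7 below, with a median log2 fold change of 0.09. With each of the 11 birds left out in turn, this median ran from -0.02 without 5 mg/kg replicate 4 to 0.17 without 5 mg/kg replicate 5. The same range is given with the other list medians. Over all genes tested 49.8% were above 0 and the median was -0.00175. Of the members 2 were higher and 3 lower at an unadjusted p under 0.05, 26.3% of the list against 9.76% of all genes tested. STC2 and GREB1, described above, are among the 3 lower. Of the 2 higher, LPL is described below and the other is not reported here. This list and those below were chosen with earlier results of these data known, so such shares only describe them. LPL, the lipase that frees fatty acids from lipoproteins, stood at 12.7, 80.7, 22.01, 19.8 and 12.5 CPM at 5 mg/kg and 7.68 to 19.9 CPM (median 12.5) in solvent birds, and replicate 2 alone was far above the rest. CTSD, the lysosomal protease that cleaves yolk precursors in the chicken oocyte, stood at 467 to 955 CPM at 5 mg/kg and 832 to 1379 CPM in solvent birds (log2 fold change -0.57, SE 0.21). Of 42 nuclear receptors and coregulators, 22 were above 0 and the median was 0.01. The receptor median ran from -0.04 without solvent replicate 4 to 0.08 without 5 mg/kg replicate 5. NR1H4, the bile acid receptor, was the 1 member whose groups did not overlap, at 65.2, 119, 68.7, 72.1 and 69.6 CPM at 5 mg/kg against 33.7 to 58.4 CPM (median 46.7) in solvent birds (log2 fold change 0.76, SE 0.21). Over all genes tested, groups did not overlap in 0.553% (higher) and 0.415% (lower). The coactivator NCOA1 and the retinoic acid receptor RARA had log2 fold changes of 0.39 and 0.35.

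Among hepatocyte transcription factors, GATA4 stood at 14.1 to 20.2 CPM at 5 mg/kg and 19.1 to 27.8 CPM in solvent birds (log2 fold change -0.50, SE 0.15). Over the 28 factors the median was -0.15 (-0.15 without solvent replicate 1 to -0.08 without 5 mg/kg replicate 3), with 10 above 0 and 18 below.

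Sterol synthesis genes were above 0 in 23 of 25, with a median of 0.64, and 5 members had an unadjusted p under 0.05 (20% of the list, against 9.76% of all genes), but the dosed birds did not act alike. MVD, which decarboxylates mevalonate diphosphate, stood at 41.9, 11.2, 103, 11.6 and 61.9 CPM at 5 mg/kg and 9.33 to 29.3 CPM (median 18.3) in solvent birds. For MVD replicates 1, 3 and 5 were above every solvent bird, and replicates 2 and 4 were below the solvent median. SCAP, the escort protein of the sterol-sensing transcription factors, was more even, at 86.4, 41.7, 92.7, 70.5 and 111 CPM at 5 mg/kg and 29.1 to 61.9 CPM (median 34.2) in solvent birds (edgeR adjusted p 0.126, log2 fold change 1.03, SE 0.24). The median of the list ran from 0.31 without 5 mg/kg replicate 3 to 0.82 without 5 mg/kg replicate 2, and it was 0.74 within replicates 1 to 3 and 0.19 within replicates 4 to 6.

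Of 25 genes that make fatty acids and triacylglycerol, 17 were above 0, with a median of 0.19. That median ran from -0.03 without 5 mg/kg replicate 3 to 0.36 without 5 mg/kg replicate 4. FADS2, the delta-6 desaturase, stood at 2325, 996, 567, 560.5 and 925 CPM at 5 mg/kg and 273 to 737 CPM (median 456) in solvent birds, with replicate 1 the highest (log2 fold change 1.199, SE 0.35). ME1, the malic enzyme that supplies NADPH, stood at 553, 268, 1146, 183 and 1009.8 CPM at 5 mg/kg and 60.8 to 575 CPM (median 234) in solvent birds, with replicates 3 and 5 far above the other dosed birds (log2 fold change 1.26, SE 0.55). In phospholipid synthesis and remodelling, the list that holds CHKA, 27 of 43 genes were above 0 with a median of 0.08. The phospholipid median ran from 0.05 without solvent replicate 4 to 0.15 without solvent replicate 5. Beside CHKA, LPCAT3, which builds polyunsaturated phosphatidylcholine, stood at 75.3 to 123 CPM at 5 mg/kg and 38.8 to 87.4 CPM in solvent birds (log2 fold change 0.69, SE 0.24). MBOAT1, an acyltransferase of lysophospholipids, was at 617 CPM in 5 mg/kg replicate 5 and 33.8 to 87.4 CPM in the other dosed birds, against 33.1 to 65.5 CPM in solvent birds, and its log2 fold change of 1.80 was 0.04 without that bird.

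Enzymes of fuel use were mixed. Of 43 genes that burn fatty acids or make ketone bodies, 26 were above 0, with a median of 0.10. That median ran from 0.01 without solvent replicate 1 to 0.20 without 5 mg/kg replicate 5. It was 0.28 within replicates 1 to 3 and -0.20 within replicates 4 to 6. Without solvent replicate 1 the list had 22 of 43 above 0, and without the first bird of both groups 19 of 43, with a median of -0.06. MGLL, the monoglyceride lipase, was the 1 member whose groups did not overlap, at 75.9 to 89.4 CPM at 5 mg/kg and 89.5 to 125 CPM in solvent birds. Of all genes tested, 0.415% lay apart on the lower side and 0.553% on the higher. In glycolysis, gluconeogenesis and glycogen turnover 30 of 43 genes were above 0 with a median of 0.12. The range of that median was 0.07 without solvent replicate 1 to 0.18 without solvent replicate 2. Within replicates 1 to 3 the glycolysis median was 0.21, and within replicates 4 to 6 it was -0.04, with 20 of 43 genes above 0. Without the first bird of both groups 24 of 43 were above 0, with a median of 0.07. In that list 7 were higher and 1 lower at an unadjusted p under 0.05, 18.6% of the list against 9.76% of all genes. PFKFB2, which sets the level of fructose 2,6-bisphosphate, stood at 25.4, 33.4, 26.3, 28.5 and 36.5 CPM at 5 mg/kg and 20.4 to 24.2 CPM (median 22.3) in solvent birds, without overlap. G6PC2, a glucose 6-phosphatase subunit, stood at 10.9, 17.5, 16.5, 27.9 and 17.2 CPM at 5 mg/kg and 22.8 to 36.6 CPM (median 31.3) in solvent birds (log2 fold change -0.75, SE 0.19), where only replicate 4 was among the solvent birds. PDK3, a kinase that holds back pyruvate dehydrogenase, was at 59.1 to 107 CPM at 5 mg/kg and 35.7 to 74.4 CPM in solvent birds (log2 fold change 0.56, SE 0.17).

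The insulin, growth hormone and insulin-like growth factor axis had 24 of 40 members above 0, with a median of 0.04. The axis median ran from -0.01 without solvent replicate 1 to 0.10 without 5 mg/kg replicate 5. IRS2, an adaptor of the insulin receptor, stood at 37.3, 47.6, 39.1, 31.6 and 50.7 CPM at 5 mg/kg and 23.00 to 29.4 CPM (median 24.4) in solvent birds, without overlap (log2 fold change 0.68, SE 0.17). SOCS2, the feedback inhibitor of growth hormone signalling, stood at 0.642, 0.340, 1.15, 0.647 and 1.47 CPM at 5 mg/kg and 0.938 to 11.5 CPM (median 4.93) in solvent birds. The 5 dosed birds of SOCS2 were at or under 1.47 CPM, and 5 of 6 solvent birds were above that (edgeR adjusted p 0.189, log2 fold change -2.78, SE 0.74). SIK1, a kinase induced by cyclic AMP, stood at 19.7, 80.1, 40.7, 129 and 22.3 CPM at 5 mg/kg and 6.28 to 30.2 CPM (median 13.9) in solvent birds, with replicates 2 and 4 the high dosed birds (log2 fold change 2.02, SE 0.53).

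The endoplasmic reticulum chaperone and unfolded protein response list had 32 of 49 members below 0 and a median of -0.18. That median ran from -0.23 without solvent replicate 6 to -0.11 without 5 mg/kg replicate 1. In this list 3 genes were higher and 7 lower at an unadjusted p under 0.05, 20.4% of the list against 9.76% of all genes. HSPA5 (BiP), the main chaperone of that compartment, stood at 294, 942, 871, 349.7 and 327 CPM at 5 mg/kg and 767 to 3249 CPM (median 1556) in solvent birds (log2 fold change -1.58, SE 0.43). Replicates 2 and 3 of the dosed birds lay within the solvent range and the other 3 lay below it. TXNDC11, a thioredoxin-domain protein of the same compartment, stood at 11.8, 26.7, 14.9, 15.97 and 15.9 CPM at 5 mg/kg and 25.02 to 69.6 CPM (median 33.1) in solvent birds (edgeR adjusted p 0.126, log2 fold change -1.33, SE 0.30). CREB3L2, described above, was higher, and CANX, calnexin, named after its values were seen, lay at 203 to 308 CPM at 5 mg/kg and 311 to 398 CPM in solvent birds. The genes of the translocon, N-glycosylation and vesicle transport had 51 of 74 below 0 and a median of -0.07. The translocon median ran from -0.15 without solvent replicate 6 to -0.04 without 5 mg/kg replicate 5, with -0.01 within replicates 1 to 3 and -0.20 within replicates 4 to 6.

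Chaperones of the cytosol and mitochondria had 29 of 49 members below 0, with a median of -0.07. The chaperone median ran from -0.13 without 5 mg/kg replicate 3 to -0.04 without 5 mg/kg replicate 5. In that list 8 genes were lower and 1 higher at an unadjusted p under 0.05, 18.4% of the list against 9.76% of all genes. BAG3, a cochaperone of stressed cells, stood at 21.7, 29.5, 39.3, 27.7 and 22.8 CPM at 5 mg/kg and 33.04 to 136 CPM (median 70.5) in solvent birds (log2 fold change -1.48, SE 0.38). Solvent replicates 1, 3 and 4 stood at 123, 99.02 and 136 CPM and the other 3 between 33.04 and 41.97 CPM, and the highest dosed bird was among these 3. HSPA4L, a nucleotide exchange factor of HSP70, stood at 76.6, 81.5, 97.8, 59.6 and 75.1 CPM at 5 mg/kg and 99.1 to 183 CPM (median 122) in solvent birds, without overlap (log2 fold change -0.69, SE 0.20). HSPA14, an HSP70 relative at the ribosome, went the other way, at 15.4, 16.2, 15.4, 15.002 and 19.7 CPM at 5 mg/kg and 10.1 to 13.2 CPM (median 11.3) in solvent birds, also without overlap (log2 fold change 0.50, SE 0.12).

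The BBSome and intraflagellar transport list, which holds BBS2, had 27 of 37 members above 0, with a median of 0.10. That median ran from 0.03 without 5 mg/kg replicate 5 to 0.15 without solvent replicate 1. Of its members 5 were higher and 1 lower at an unadjusted p under 0.05, 16.2% of the list against 9.76% of all genes. BBS2 itself is among the 5 higher, and the list was chosen with earlier results of these data known. WDR19, of the retrograde transport complex, stood at 4.41, 2.54, 1.70, 2.005 and 1.81 CPM at 5 mg/kg and 1.08 to 1.69 CPM (median 1.24) in solvent birds, without overlap, and replicate 1 was the highest. DYNC2LI1, a chain of the dynein that runs that transport, stood at 4.99 to 12.2 CPM at 5 mg/kg and 3.17 to 6.23 CPM in solvent birds (log2 fold change 0.81, SE 0.24). Genes of cilia, centrioles and microtubule nucleation outside that list, named after their values were seen, also had dosed birds above every solvent bird. NEK8, a kinase of the cilium base, stood at 1.83 to 3.33 CPM at 5 mg/kg and 1.08 to 1.68 CPM in solvent birds, CEP162 at 2.19 to 3.10 CPM at 5 mg/kg and 1.41 to 2.004 CPM in solvent birds, DZIP1 at 3.02 to 4.79 CPM at 5 mg/kg and 1.56 to 2.82 CPM in solvent birds, and TUBGCP3 at 6.34 to 7.55 CPM at 5 mg/kg and 4.09 to 5.74 CPM in solvent birds. Each was low, and they were picked from 76 genes, so their number says nothing about cilia as a class.

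In the magnesium, zinc and copper list, which holds SLC41A1, 20 of 37 were above 0 with a median of 0.04. Its median ran from -0.02 without 5 mg/kg replicate 1 to 0.06 without 5 mg/kg replicate 2. The paralog SLC41A2 stood at 27.6, 20.8, 19.8, 20.3 and 19.4 CPM at 5 mg/kg and 11.8 to 20.1 CPM (median 15.98) in solvent birds (log2 fold change 0.45, SE 0.15), with 5 of 5 dosed birds above the solvent mean. SLC39A8, a zinc and manganese importer, was below the solvent mean in 5 of 5 birds, at 11.8 to 25.8 CPM at 5 mg/kg and 20.03 to 43.6 CPM in solvent birds (log2 fold change -0.70, SE 0.26). In calcium handling, with a median of -0.01 (-0.06 without solvent replicate 4 to -0.003 without solvent replicate 3) over 34 members, ATP2A3, a calcium pump of the endoplasmic reticulum, stood at 8.55, 6.01, 9.24, 10.6 and 8.60 CPM at 5 mg/kg and 11.1 to 17.4 CPM (median 13.1) in solvent birds, without overlap (log2 fold change -0.66, SE 0.18), and STIM1, the calcium sensor of that store, was at 0.46 (SE 0.17). The NAD list, which holds SARM1, had 14 of 31 above 0 and a median of -0.01. The NAD median ran from -0.06 without solvent replicate 6 to 0.03 without 5 mg/kg replicate 5.

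Genes of interleukin 6, STAT3 and NF-kappaB signalling, the list that holds SBNO2, had 31 of 57 above 0 and a median of 0.04. Its value ran from -0.03 without solvent replicate 6 to 0.16 without solvent replicate 1. STAT3, the transcription factor of that pathway, stood at 404, 472, 246, 309.8 and 328 CPM at 5 mg/kg and 155 to 269 CPM (median 192) in solvent birds (edgeR adjusted p 0.126, log2 fold change 0.80, SE 0.18), and only replicate 3 lay within the solvent range. ARID5A, which stabilises interleukin 6 mRNA in mouse cells and was named after its values were seen, stood at 24.97, 68.4, 28.6, 41.8 and 26.8 CPM at 5 mg/kg and 13.3 to 22.2 CPM (median 15.8) in solvent birds, without overlap (log2 fold change 1.19, SE 0.29). Among 50 genes of the acute phase, clotting and complement, 37 were above 0, and the median was 0.16. The acute phase median ran from 0.05 without 5 mg/kg replicate 2 to 0.21 without 5 mg/kg replicate 3. It was 0.21 within replicates 1 to 3 and -0.02 within replicates 4 to 6. Without 5 mg/kg replicate 2 the list had 29 of 50 above 0. C6, of the complement attack complex, stood at 218 to 932 CPM at 5 mg/kg and 159 to 486 CPM in solvent birds (log2 fold change 0.89, SE 0.39).

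Amino acid breakdown genes had 37 of 50 members below 0, with a median of -0.14. It ran from -0.19 without solvent replicate 1 to -0.09 without 5 mg/kg replicate 5. In it 0 genes were higher and 3 lower at an unadjusted p under 0.05, 6% of the list, which is under the 9.76% of all genes. GLUL, glutamine synthetase, which traps ammonia, stood at 1969.8, 1420.3, 2395, 1548 and 1664 CPM at 5 mg/kg and 2276 to 3581 CPM (median 3006) in solvent birds (log2 fold change -0.73, SE 0.23). Only replicate 3 of the dosed birds lay above the lowest solvent bird. ARG2, the mitochondrial arginase, was at 0.962 to 5.69 CPM at 5 mg/kg and 1.14 to 49.5 CPM in solvent birds, with solvent replicate 1 the highest (log2 fold change -2.49, SE 0.79; -1.39 at the smallest when 1 bird was left out). Genes of purine and uric acid synthesis, the route by which birds excrete nitrogen, had 26 of 32 below 0 and a median of -0.15. The purine median ran from -0.18 without 5 mg/kg replicate 3 to -0.11 without 5 mg/kg replicate 1, with -0.15 within replicates 1 to 3 and -0.18 within replicates 4 to 6. By the mean log2(CPM + 0.5) of the members, centred on these birds, 5 mg/kg replicate 4 stood at 0.14, above all solvent birds (-0.01 to 0.13). Replicates 1, 2, 3 and 5 stood at -0.14, -0.17, -0.06 and -0.19, below all solvent birds. XDH, which makes uric acid, stood at 239, 405, 352, 799.6 and 196 CPM at 5 mg/kg and 501 to 982 CPM (median 607) in solvent birds, and replicate 4 was above all solvent birds but 1. HPRT1, of purine salvage, lay at 3.79 to 5.61 CPM at 5 mg/kg and 5.09 to 8.79 CPM in solvent birds (log2 fold change -0.43, SE 0.18), and IMPDH2, of guanine nucleotide synthesis, at 62.5 to 145 CPM at 5 mg/kg and 45.2 to 78.2 CPM in solvent birds (log2 fold change 0.47, SE 0.20; -0.16 within replicates 4 to 6).

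Cell cycle and DNA replication genes were above 0 in 84 of 101 members, with a median of 0.27. The cell cycle median ran from 0.04 without 5 mg/kg replicate 1 to 0.41 without 5 mg/kg replicate 2. Of these genes 13 were higher and 1 lower at an unadjusted p under 0.05, 13.9% of the list against 9.76% of all genes. Without 5 mg/kg replicate 1 the counts were 52 above and 49 below. Without the first bird of both groups 70 of 98 were above 0, with a median of 0.18. Within replicates 1 to 3 the median was 0.25, and within replicates 4 to 6 it was 0.30. The members were also averaged per bird, as for the purine genes. By that mean 5 mg/kg replicates 1 and 5 stood at 0.74 and 0.39, above all solvent birds (-0.34 to 0.32). Replicates 2, 3 and 4 stood at -0.33, -0.10 and -0.22, within the solvent range. Each class held 1 dosed bird above all solvent birds, so the similar class medians do not show a rise shared by the dosed birds. Groups without overlap were found in 0 of the 101 members, against 0.553% (higher) and 0.415% (lower) of all genes tested. With shares that small, 0 members says little about the list. RRM1, the large subunit of ribonucleotide reductase, stood at 11.1, 6.42, 4.59, 3.69 and 8.12 CPM at 5 mg/kg and 2.87 to 3.85 CPM (median 3.35) in solvent birds (edgeR adjusted p 0.103, log2 fold change 1.02, SE 0.23), where replicate 4 alone was within the solvent range. MCM6, of the replicative helicase, stood at 16.2, 6.12, 14.6, 7.05 and 12.4 CPM at 5 mg/kg and 4.09 to 9.94 CPM (median 4.85) in solvent birds (log2 fold change 0.93, SE 0.30), and replicates 2 and 4 were within the solvent range. Genes outside that list, named after their values were seen, had dosed birds above every solvent bird, with TDP1, which clears trapped topoisomerase, at 2.33 to 3.71 CPM at 5 mg/kg and 1.11 to 1.82 CPM in solvent birds, RECQL, a helicase, at 3.80 to 4.76 CPM at 5 mg/kg and 2.36 to 3.70 CPM in solvent birds, and ORC3, of the origin recognition complex, at 4.79 to 6.03 CPM at 5 mg/kg and 3.45 to 4.71 CPM in solvent birds. They were picked from the same 76 genes, so their number says nothing about DNA repair or replication as a class.

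The circadian list had 3 members higher and 4 lower at an unadjusted p under 0.05, 29.2% of its 24 genes against 9.76% of all genes. NOCT, described above, is among the 4 lower, and the list was chosen with earlier results of these data known. The circadian median was -0.03, from -0.09 without 5 mg/kg replicate 3 to -0.02 without solvent replicate 3. Beside NOCT, the clock activator ARNTL2 stood at 4.35 to 6.05 CPM at 5 mg/kg and 2.84 to 4.36 CPM in solvent birds (log2 fold change 0.53, SE 0.15), and CLOCK at 23.4, 27.2, 25.2, 24.7 and 24.99 CPM at 5 mg/kg and 25.9 to 38.7 CPM (median 31.6) in solvent birds (log2 fold change -0.33, SE 0.12). The hour of sampling of each bird is not stated in the labels. Immediate early and growth factor response genes had 46 of 72 below 0 and a median of -0.10. Their median ran from -0.20 without 5 mg/kg replicate 3 to -0.01 without solvent replicate 1. Without solvent replicate 1 the list had 36 of 70 below 0, and without the first bird of both groups it turned, with 41 of 71 above 0 and a median of 0.05. Beside KLF15 and PPP1R10, ERRFI1, a feedback inhibitor of the epidermal growth factor receptor that was named after its values were seen, stood at 22.8, 29.1, 28.9, 17.7 and 26.9 CPM at 5 mg/kg and 30.2 to 65.9 CPM (median 40.96) in solvent birds, without overlap. The list of TGF-beta, Notch, Wnt and Hippo signalling had 52 of 81 below 0 and a median of -0.11. Here the median ran from -0.16 without 5 mg/kg replicate 3 to -0.07 without 5 mg/kg replicate 2. Beside SMAD6, SMAD1, an activating Smad of the same pathway, stood at 50.3, 171, 48.9, 93.2 and 41.3 CPM at 5 mg/kg and 24.7 to 45.03 CPM (median 35.1) in solvent birds, with replicate 5 alone within the solvent range (log2 fold change 1.25, SE 0.33), and SMURF1, which degrades such Smads, at 56.6 to 138 CPM at 5 mg/kg and 41.7 to 73.9 CPM in solvent birds (log2 fold change 0.65, SE 0.21).

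Interferon response genes were below 0 in 35 of 40, with a median of -0.49. The interferon median ran from -0.58 without solvent replicate 2 to 0.07 without solvent replicate 1, so it rested on solvent replicate 1. RSAD2 (viperin), an antiviral enzyme, stood at 5.24, 7.26, 6.59, 3.23 and 1.28 CPM at 5 mg/kg, 1280.4 CPM in solvent replicate 1 and 2.17 to 7.65 CPM in the other 5 solvent birds, and CMPK2, a nucleotide kinase induced with it, at 6.22 to 10.9 CPM at 5 mg/kg, 921 CPM in solvent replicate 1 and 5.74 to 17.6 CPM in the other 5. Without that bird 14 of 39 members were below 0, and RSAD2 had a log2 fold change of 0.06 in place of -5.51. DHX58, a regulator of viral RNA sensing, kept a log2 fold change of at most -0.95 when any 1 bird was left out, with 14.7, 6.53, 7.44, 6.34 and 9.88 CPM at 5 mg/kg against 49.6, 13.3, 23.99, 17.3, 16.3 and 16.5 CPM in the solvent birds, so that 4 of 5 dosed birds lay below all 6 (log2 fold change -1.34, SE 0.33).

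Blood cell and macrophage markers were mostly below 0. Lymphocyte markers were below 0 in 20 of 22 tested with a median of -0.89. The lymphocyte median ran from -1.32 without 5 mg/kg replicate 3 to -0.37 without solvent replicate 1, and solvent replicate 1 held the highest summed level, given above. PAX5, a B cell factor, stayed under 0.1 CPM in every bird. Macrophage and Kupffer cell markers were below 0 in 14 of 16 with a median of -0.37. The macrophage median ran from -0.47 without solvent replicate 3 to -0.11 without solvent replicate 1. Red blood cell markers were below 0 in 12 of 12 with a median of -0.48. The red cell median ran from -0.84 without 5 mg/kg replicate 4 to -0.31 without 5 mg/kg replicate 2. Their summed levels were 186 to 913 CPM at 5 mg/kg and 403 to 824 CPM in solvent birds. Granulocyte and thrombocyte markers were below 0 in 10 of 10 with a median of -0.59. The granulocyte and thrombocyte median ran from -0.71 without solvent replicate 1 to -0.36 without 5 mg/kg replicate 2. Their sums were 40.8 to 78.4 CPM at 5 mg/kg and 59.2 to 119 CPM in solvent birds. The summed levels of the groups overlapped for each of these 4 cell types.

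Endothelial markers were below 0 in 27 of 30 with a median of -0.26. The endothelial median ran from -0.36 without 5 mg/kg replicate 4 to -0.14 without 5 mg/kg replicate 5. It was -0.29 within replicates 1 to 3 and -0.29 within replicates 4 to 6. Without 5 mg/kg replicate 5 they were below 0 in 24 of 30. On library totals without TMM factors their summed level was 353 to 566 CPM at 5 mg/kg and 481 to 688 CPM in solvent birds. By these sums 5 mg/kg replicate 4 was above 4 of 6 solvent birds and replicates 2, 3 and 5 were below all 6. EGFL7, a factor secreted by endothelium, stood at 4.14, 3.36, 6.62, 7.18 and 3.71 CPM at 5 mg/kg and 4.64 to 9.72 CPM (median 8.22) in solvent birds (log2 fold change -0.66, SE 0.26). RSPO3, a Wnt enhancer that endothelium of the central vein secretes in mouse liver, named after its values were seen, stood at 5.03, 6.62, 6.93, 6.60 and 4.66 CPM at 5 mg/kg and 7.07 to 12.6 CPM (median 9.02) in solvent birds, without overlap (log2 fold change -0.64, SE 0.17). Stellate cell and fibroblast markers were above 0 in 26 of 40 with a median of 0.09. The stellate cell median ran from -0.08 without 5 mg/kg replicate 3 to 0.22 without 5 mg/kg replicate 1. In that list HAND2, a transcription factor of stellate cells, stood at 4.76, 4.65, 6.76, 3.94 and 4.23 CPM at 5 mg/kg and 5.99 to 10.6 CPM (median 9.25) in solvent birds (log2 fold change -0.84, SE 0.19), and COL6A3, a collagen chain, at 13.9 CPM in 5 mg/kg replicate 3 and 0.615 to 4.75 CPM in the other dosed birds, against 0.768 to 2.10 CPM in solvent birds. The part of cell makeup in the gene values of whole liver was not tested.

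Core machinery showed no gene at an unadjusted p under 0.05 in the lists of cytosolic ribosomal proteins (74 tested), ribosome biogenesis (64), nuclear-encoded oxidative phosphorylation (53) and mitochondrial ribosomal proteins (73), against 9.76% of all genes. The medians of these lists lay between 0.02 and 0.06. With 1 bird left out, the median ran from -0.04 without solvent replicate 2 to 0.08 without solvent replicate 4 for cytosolic ribosomal proteins and from 0.002 without 5 mg/kg replicate 2 to 0.11 without solvent replicate 1 for ribosome biogenesis. It ran from -0.05 without solvent replicate 1 to 0.11 without 5 mg/kg replicate 4 for nuclear-encoded oxidative phosphorylation and from -0.04 without solvent replicate 1 to 0.08 without 5 mg/kg replicate 4 for mitochondrial ribosomal proteins. Without solvent replicate 1 nuclear-encoded oxidative phosphorylation had 17 genes above 0 and 36 below, against 35 above and 18 below with it. Within the number classes all of these lists had opposite signs. The median of cytosolic ribosomal proteins was 0.18 within replicates 1 to 3 and -0.10 within replicates 4 to 6. That of mitochondrial ribosomal proteins was 0.11 and -0.09 in the same order, and that of ribosome biogenesis 0.10 and -0.03. Translation factors had the same split, with 0.24 and -0.14. The median of nuclear-encoded oxidative phosphorylation was 0.20 within replicates 1 to 3 and -0.21 within replicates 4 to 6, and that of the 13 mitochondrially encoded genes was 0.17 within replicates 1 to 3 and -0.46 within replicates 4 to 6. Mitochondrial transcripts took 7.03% of counts in 5 mg/kg replicate 5 and 8.91% in solvent replicate 1, the lowest bird of each group, and 13.7% and 14.5% in the highest. The median of the mitochondrially encoded genes over all birds was -0.13, and it ran from -0.23 without 5 mg/kg replicate 4 to 0.01 without 5 mg/kg replicate 5.

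**Figure D3:**
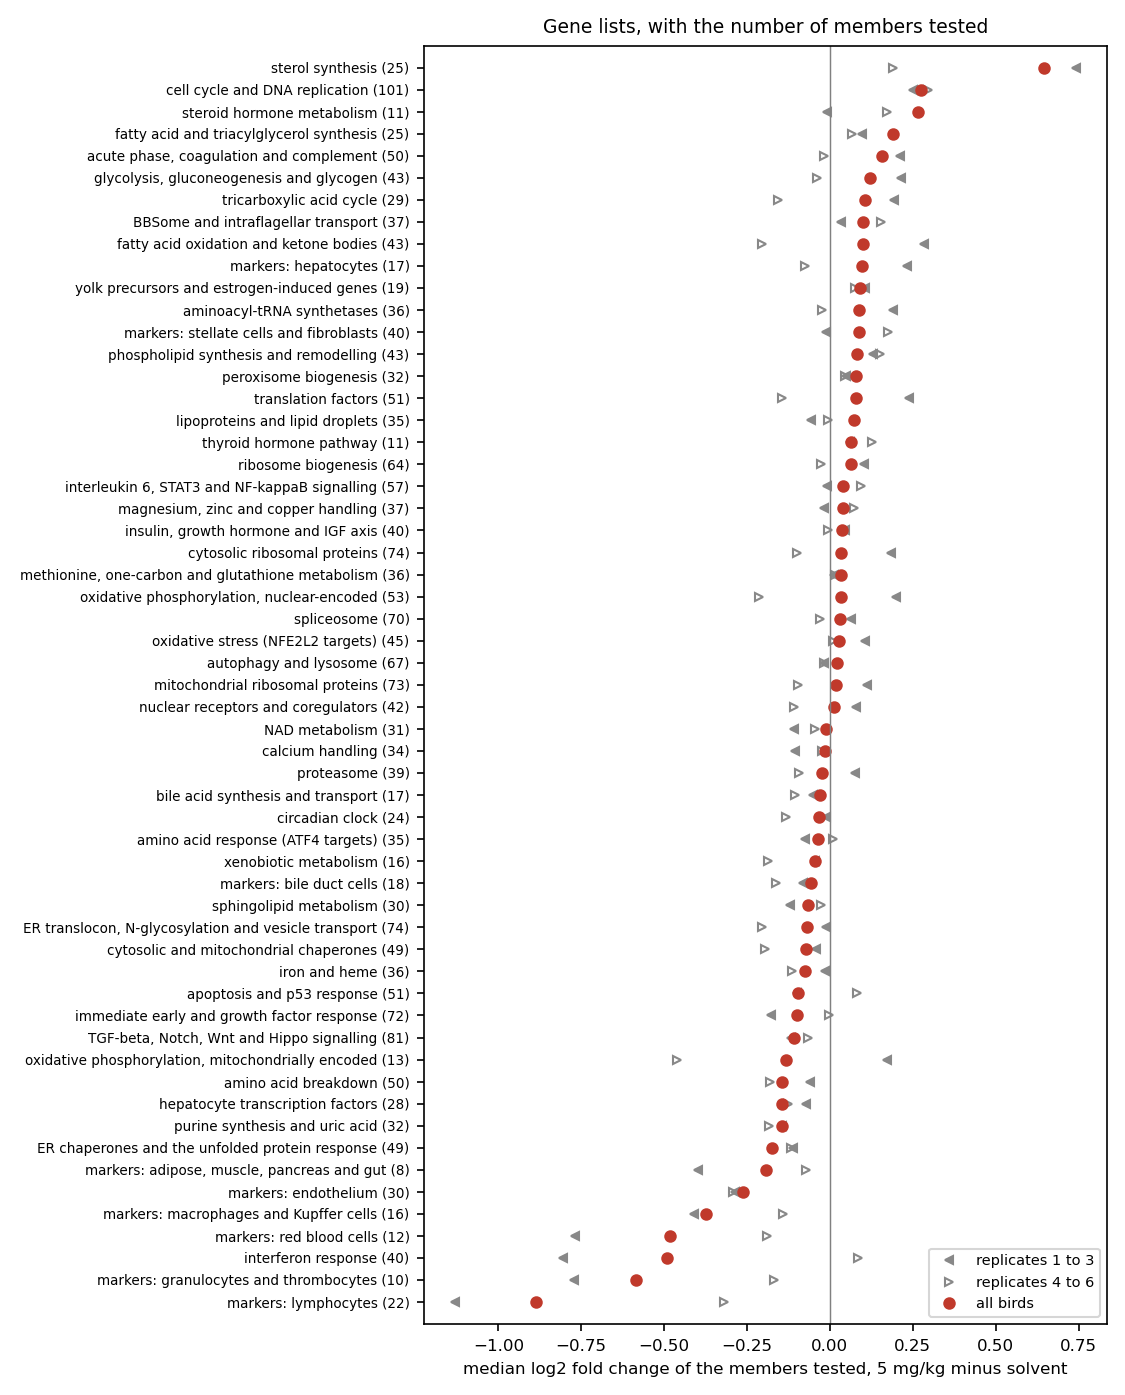
Median log2 fold change of the members tested in each of 57 gene lists, 5 mg/kg minus solvent, in all birds and within replicates 1 to 3 and 4 to 6. Sterol synthesis is highest at 0.64 and lymphocyte markers lowest at -0.89, and the triangles of the classes lie far apart for interferon response, blood cell markers and mitochondrially encoded genes.

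The birds numbered 1 to 3 and 4 to 6 give 2 comparisons that share no bird. Across all genes, which are not independent replicates, the log2 fold changes of the classes had a Pearson correlation of 0.16, and 56.1% had the same sign. In replicates 1 to 3 the dosed birds lay above all solvent birds in 768 genes, 5.59% of those tested. Of these, 461 (60.0%) were above 0 in replicates 4 to 6, against 49.4% of all genes. The dosed birds lay below in 809 genes (5.88%). Of these, 540 (66.7%) were below 0 in replicates 4 to 6, against 50.6% of all. In replicates 4 to 6, with 2 dosed birds, 1372 genes (9.98%) lay higher and 1307 (9.51%) lower without overlap. Within replicates 1 to 3, 834 of those higher genes (60.8%) were above 0, against 47.7% of all. Of those lower genes, 793 (60.7%) were below 0, against 52.3%. Counts without overlap grow by construction when birds are fewer, so their size does not measure the dose effect. The difference between the classes was tested as an interaction in edgeR's quasi-likelihood fit, and 0 of 13748 genes passed (0%), with 570 at an unadjusted p under 0.05. With so few birds in each class, 0 genes does not show that the effect was the same in both. Within replicates 4 to 6 alone 1 gene passed, and within 1 to 3 none, with 464 higher and 631 lower at an unadjusted p under 0.05.

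**Figure D4:**
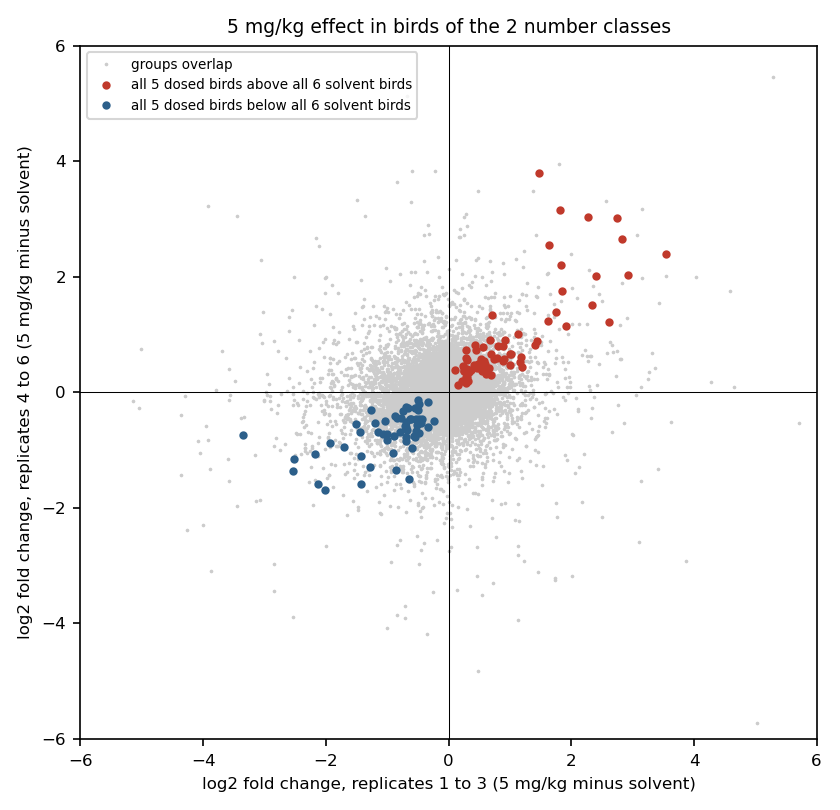
Log2 fold change of each gene within replicates 1 to 3 (horizontal) and within replicates 4 to 6 (vertical), 5 mg/kg minus solvent. Genes whose 5 dosed birds lie above (red) or below (blue) all 6 solvent birds fall by construction in the upper right and lower left, most grey genes form a cloud around 0, and 16 genes lie outside the axes.

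Genes with no symbol held the 3 largest log2 fold changes in either direction, and in these 5 mg/kg replicate 1 was far above all other birds. The genes below were named after their values were seen. LOC107317565, on chromosome 8, stood at 7415, 25.5, 4.82, 4.01 and 2.09 CPM at 5 mg/kg and 0.114 to 1.33 CPM (median 0.403) in solvent birds, and LOC107319873, on chromosome 1, at 6678, 11.3, 3.43, 6.79 and 2.95 CPM at 5 mg/kg and 0.705 to 2.71 CPM (median 1.38) in solvent birds. In both genes the groups did not overlap and replicate 2 was the next highest dosed bird. Their log2 fold changes were 11.41 (SE 2.16, edgeR adjusted p 0.0848) and 9.79 (SE 1.97, adjusted p 0.102), and 4.07 and 2.02 without replicate 1.

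A further 4 genes had their high value in that bird and overlapping groups. LOC107317352 and LOC107317574, both on chromosome 8, stood at 527 and 1671 CPM in 5 mg/kg replicate 1, against 1.12 to 3.49 CPM and 9.68 to 21.3 CPM in the other dosed birds. Solvent birds had 0 to 3.24 CPM of LOC107317352, and of LOC107317574 they had 40.6 CPM in replicate 1 and 0.0504 to 2.56 CPM in the other 5. LOC107310248 and LOC107314278, both on chromosome 1, stood at 185 and 123 CPM in replicate 1, against at most 4.27 and 2.46 CPM in the other dosed birds and 11.3 and 6.29 CPM in solvent replicate 6. Without 5 mg/kg replicate 1 their log2 fold changes were -0.34 and -0.28. The name table gives these genes no function.

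**Figure D5:**
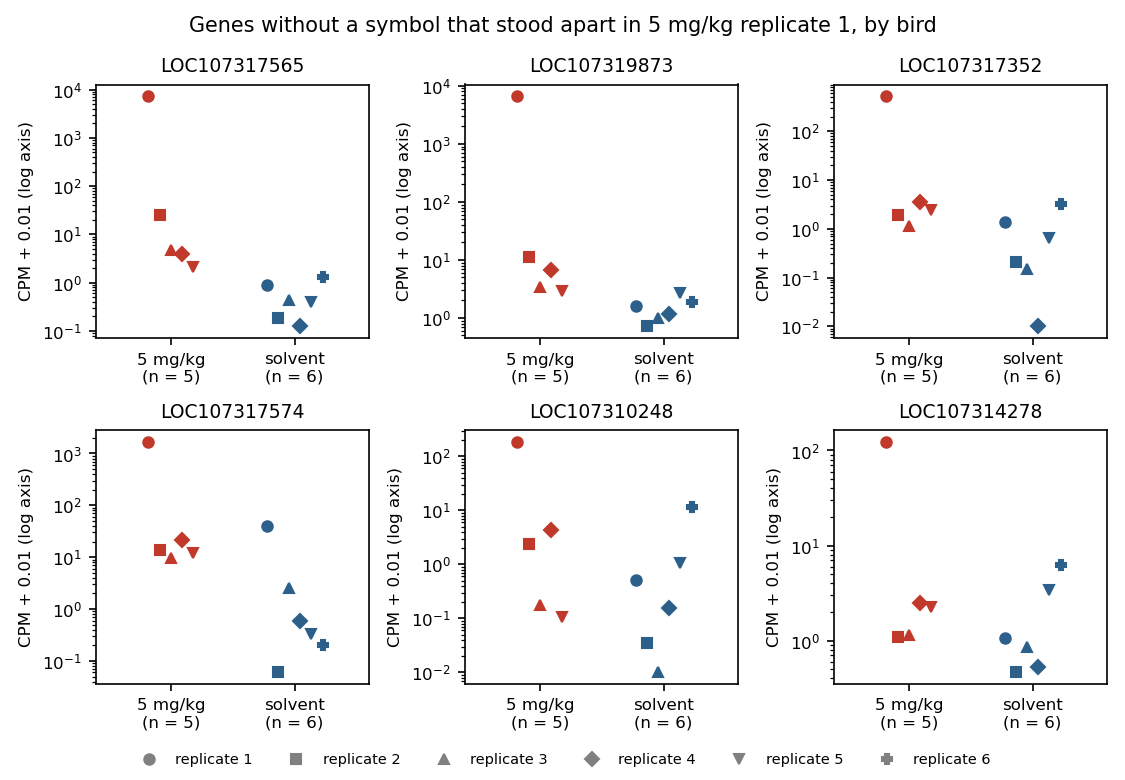
Level in each bird of 6 genes without a symbol, as CPM plus 0.01 on a log axis, 5 mg/kg left of solvent. In every panel 5 mg/kg replicate 1 is the highest bird, from 123 to 7415 CPM.

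The 0.5 mg/kg birds share their solvent controls with this comparison, so their levels are given only side by side. BBS2 averaged 48.03 ± 37.5 CPM at 5 mg/kg, 23.4 ± 10.5 CPM at 0.5 mg/kg and 5.80 ± 2.02 CPM in solvent birds (SD, n = 5, 5 and 6), and 0.5 mg/kg birds had 17.1, 30.97, 31.1, 7.82 and 30.05 CPM. STC2 averaged 18.8 ± 5.88 CPM at 5 mg/kg, 58.5 ± 21.4 CPM at 0.5 mg/kg and 68.9 ± 36.8 CPM in solvent birds. NOCT averaged 10.8 ± 7.20 CPM at 5 mg/kg, 25.8 ± 3.83 CPM at 0.5 mg/kg and 46.1 ± 27.1 CPM in solvent birds, and ESR2 33.7 ± 21.8 CPM at 5 mg/kg, 94.3 ± 21.2 CPM at 0.5 mg/kg and 35.1 ± 22.5 CPM in solvent birds. The mean of STC2 at 0.5 mg/kg lay within the range of the solvent birds, and ESR2 averaged highest at 0.5 mg/kg. ERRFI1 averaged 25.1 ± 4.87 CPM at 5 mg/kg, 25.4 ± 6.96 CPM at 0.5 mg/kg and 46.4 ± 15.4 CPM in solvent birds, and CHST4 averaged 71.2 ± 20.8 CPM at 5 mg/kg, 147 ± 83.4 CPM at 0.5 mg/kg and 178 ± 40.1 CPM in solvent birds.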

How the data were processed

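Kallisto was the quantification tool, per the submitters' processing notes, with no version or index named there. The authors deposited estimated counts per transcript in 47418 rows. These were summed to 20308 NCBI gene numbers and rounded, which moved a value by at most 0.5. Symbols and chromosomes came from an NCBI gene table of Coturnix japonica 2.1, which held 18900 of the genes.

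All 16 libraries (6 solvent, 5 at 0.5 mg/kg, 5 at 5 mg/kg) entered 1 fit with 3 groups and 13 residual degrees of freedom in edgeR 4.0.16 under R 4.3.3, with TMM scaling and the filterByExpr filter (minimum count 10, minimum total 15). Of the 13748 genes tested, 2865 had no symbol. The threshold was a Benjamini-Hochberg adjusted p under 0.05, and levels of genes are CPM on TMM library sizes. Summed levels of markers are CPM on library totals without TMM factors. The factor was 1.30 in solvent replicate 1 and 0.927 to 1.13 in the other birds of these 2 groups. Sums of solvent replicate 1 therefore stand higher than they would on TMM sizes. The biological coefficient of variation was 35.4%. The fit was tested on data simulated with about that spread in every gene and no bird that stands apart, unlike these data. There it recovered 97 of 100 genes changed 4-fold and 35 of 100 changed 2-fold, with 7 false calls.

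Members and gene lists were chosen with earlier results of these data known, so lists are described by counts and medians with no test. Named genes are those past the threshold, the 15 higher and 15 lower genes with a symbol, a group mean of at least 1 CPM, groups without overlap and the lowest p, up to 3 members of each list with the lowest p, and ESR1, ESR2, PGR, APOB, GREB1 and STC2. Results on some of these genes are not reported here. Alternatives were RLE factors, no filter, DESeq2 1.42.0, limma 3.58.1 voom, only the 2 groups, replicate number or class as a term, each class alone and each bird left out. Leaving out replicate 1 of both groups together was added after seeing the data.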

Additional observations from a re-analysis of the deposited data

Results flagged for a closer look

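In 28 of 258 groups examined (129 genes in 2 groups each), 1 bird stood so far from its group that its gap to the next bird, divided by the range of the group on the log2(CPM + 0.5) scale, was above the 95% critical value of 0.71 for 5 birds or 0.625 for 6. Chance flags about 1 in 20 groups. The genes were partly named for their values, and neighbouring genes can share a bird.

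Among the birds given 5 mg/kg, replicate 1 was the high bird in LOC107317565 (gap ratio 0.710, 7415 CPM against at most 25.5 CPM in the other 4), LOC107319873 (0.837, 6678 against at most 11.3 CPM), LOC107317574 (0.851, 1671 against at most 21.3 CPM), LOC107317352 (0.844, 527 against at most 3.49 CPM), LOC107314278 (0.857, 123 against at most 2.46 CPM) and SLC41A2 (0.808, 27.6 against at most 20.8 CPM). Replicate 2 was the high bird in BBS2 (0.720), PLPP3 (0.732), CREB3L2 (0.719) and NR1H4 (0.833), with 119 CPM of NR1H4 against 65.2 to 72.1 CPM in the other 4. Replicate 4 was high in CHST4 (0.715) and replicate 5 in HSPA14 (0.712).

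Among the solvent birds, replicate 1 was the high bird in RSAD2 (0.819, 1280 CPM against at most 7.65 CPM in the other 5), CMPK2 (0.787, 921 against at most 17.6 CPM), CD5, a surface protein of T cells (0.752, 3.21 against at most 0.731 CPM), KLHL5 (0.707), PTPN12, a tyrosine phosphatase (0.661), PPP1R10 (0.644) and HSPA4L (0.637). The same bird was the low one in MTSS1 (0.766), PDK3 (0.699) and FBXO31 (0.630). Replicate 2 was high in XDH (0.707, 982 CPM) and low in EGFL7 (0.650, 4.64 CPM). Replicate 4 was low in NEK8 (0.827), replicate 5 high in CREB3L2 (0.652), replicate 6 high in LOC107310248 (0.646) and low in SLC38A2, an amino acid transporter (0.699, 117 CPM against at least 182 CPM).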

How the results depend on the processing

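The counts of 6 higher and 0 lower genes were the same with RLE factors and without the filter. They were 93 and 60 with DESeq2, where 897 genes had no adjusted p and all 153 calls had an edgeR p under 0.05, 2 higher with limma-voom, and 0 higher with only the 2 groups. With the replicate number as a block they were 1 and 1 (554 and 621 at an unadjusted p under 0.05), and with the number in brackets in the titles as a block 1 higher. Whether the numbers pair the birds was not tested. Birds of the same replicate number correlated at 0.02, 0.20, 0.01, 0.02 and 0.11, and 2 of 5 dosed birds correlated best with their own number. By the number in brackets, 5 mg/kg replicate 4 correlated at 0.04 with solvent replicate 5, and 5 mg/kg replicate 5 at -0.01 with solvent replicate 6. With the number class as a term the counts were 2 and 1. The classes were also fitted alone, with their own filter and scaling, so their counts without overlap differ from those given above, which use the scaling of all birds, and in replicates 4 to 6 the larger side changes. Within replicates 1 to 3 no gene was higher and groups did not overlap in 770 higher and 813 lower genes. Within replicates 4 to 6 they were 1 higher, 373 and 398 at an unadjusted p under 0.05, and 1297 and 1381 without overlap. Without replicate 1 of both groups, 192 and 129 genes had groups without overlap, and 4 higher genes passed. Counts without overlap grow by construction when birds are fewer. Leaving out 1 bird gave 0 to 17 genes higher and 0 to 4 lower past the threshold, 588 to 770 and 521 to 900 at an unadjusted p under 0.05, and 100 to 174 and 80 to 158 without overlap. The interaction count was 0 in all 3 settings tried. Signs turned for ESR1 (-0.13 to 0.33 when 1 bird was left out, below 0 without 5 mg/kg replicate 4), ESR2 (0.14 with the replicate block, 0.35 in replicates 4 to 6, and -0.47 to 0.25 when 1 bird was left out, above 0 without solvent replicate 2 or 6 or 5 mg/kg replicate 1, 3 or 5), PGR (0.37 in replicates 4 to 6, 0.0250 without replicate 1 of both groups, and -0.433 to 0.0275 when 1 bird was left out), LOC107310248 (-0.96 in replicates 4 to 6, -0.54 without both first birds, and -0.34 to 6.75 when 1 bird was left out), LOC107314278 (-0.54 in replicates 4 to 6, -0.42 without both first birds, and -0.28 to 4.37 when 1 bird was left out), RSAD2 (0.0209 without both first birds, and -5.78 to 0.0583 when 1 bird was left out, above 0 without solvent replicate 1) and IMPDH2 (-0.16 in replicates 4 to 6). The cause was not tested. Of the other gene values tried, 2669 kept direction and side of the threshold, 80 no longer passed and 69 passed newly.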
